A study of Mus musculus with 6 samples.

Results

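Klf2, Klf3, S1pr1 and S1pr4, 4 of the 32285 genes measured, were described in T cells from mouse brain tumors. They were chosen by name, as genes of T cell circulation and exit from tissue, and all 4 were found in both count matrices. The choice was made with earlier results of these data known, so their counts against the share of all genes are a description. The tumors were intracranial CT2A gliomas, a mouse glioma line, in wild-type C57BL/6J mice aged 6 to 8 weeks. CD3+ cells that were CD4+ or CD8+ were sorted at day 13 from 16 mice, 4 pooled to a replicate, and at day 19 from 4 mice. The labels name no treatment, and both days share strain, genotype and tumor line. Each day was 1 capture with 10x 5′ chemistry, from which libraries of gene expression, of antibody tags and of T cell receptors (TCR) were made. With 1 capture a day, and no label that ties cells to mice or pools, each day was treated as 1 sample, so no difference was tested and no p-value is given.

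KLF2 is a zinc finger transcription factor of naive and circulating T cells. It is known to drive transcription of S1PR1 and of the adhesion molecule CD62L (L-selectin) and to hold T cells in a quiescent state. S1PR1 is the receptor with which lymphocytes follow the gradient of sphingosine-1-phosphate (S1P) from tissue into lymph and blood. CD69 binds S1PR1 and takes it off the cell surface, and both KLF2 and S1PR1 are known to be low in tissue-resident memory T cells. KLF3 is a related factor that binds the CACCC sequence and acts mainly as a repressor. S1PR4 is a lymphocyte receptor for the same lipid that is less clearly tied to exit from tissue. PD-1, encoded by Pdcd1, is an inhibitory receptor that is induced by antigen recognition and kept on exhausted T cells.

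The stretch of 250 bases before the start site is shown for 3 of the 4 genes, those with an entry among the RefSeq promoters used (GRCm38.p6). They are shown because KLF proteins bind CACCC, and because Klf2 and Klf3, but not S1pr4, were past 2-fold by Pdcd1, clone size and CD62L tag in CD8 T cells. Capitals mark CACCC or its complement GGGTG and, in Klf2, a match of the consensus that MEF2 factors bind. The Klf2 stretch is chr8:72318812-72319061 on the + strand, the Klf3 stretch chr5:64803271-64803520 on the + strand, and the S1pr4 stretch chr10:81500138-81500387 on the - strand, each printed 5′ to 3′.
Klf2: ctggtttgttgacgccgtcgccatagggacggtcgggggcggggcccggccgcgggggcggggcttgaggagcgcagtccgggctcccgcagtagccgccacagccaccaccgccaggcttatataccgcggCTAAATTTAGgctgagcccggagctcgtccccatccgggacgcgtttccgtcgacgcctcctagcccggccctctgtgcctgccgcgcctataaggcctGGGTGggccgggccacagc
Klf3: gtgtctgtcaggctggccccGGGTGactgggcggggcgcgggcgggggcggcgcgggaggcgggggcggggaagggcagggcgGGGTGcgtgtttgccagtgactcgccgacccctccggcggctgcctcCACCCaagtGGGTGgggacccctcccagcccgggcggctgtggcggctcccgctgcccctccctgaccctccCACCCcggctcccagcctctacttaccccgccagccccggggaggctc
S1pr4: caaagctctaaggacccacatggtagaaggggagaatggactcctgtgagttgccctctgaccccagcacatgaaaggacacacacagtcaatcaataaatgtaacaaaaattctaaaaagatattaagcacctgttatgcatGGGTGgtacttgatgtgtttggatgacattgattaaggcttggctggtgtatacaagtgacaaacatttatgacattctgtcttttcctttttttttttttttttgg
CACCC on either strand was found 5 times before Klf3, once before Klf2 and once before S1pr4. Of 32851 RefSeq stretches of this length, 52.0% held the motif at least once and 0.667% held it 5 times or more. The MEF2 consensus, chosen after the Klf2 sequence had been read, was before Klf2 once and in 2.92% of all stretches, and not before Klf3 or S1pr4. GTAAACA, a FOXO sequence searched on both strands, was in 3.17% of all stretches and in 0 of these 3. G and C made up 71.2% of the Klf2 stretch, 78.4% of the Klf3 stretch and 38.8% of the S1pr4 stretch. A match is a description of the letters and shows no binding.

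The genes were described in 5934 cells, 3775 at day 13 and 2159 at day 19. These are barcodes with an assembled TCR contig, at least 5000 gene UMIs (unique molecular identifiers, each marking 1 captured molecule), at most 10% mitochondrial UMIs and at most 3 UMIs of the macrophage genes C1qa, Lyz2 and Csf1r. CD8 T cells (2646 and 1436, median depth 7199 and 9097.5 UMIs) showed Cd8a or Cd8b1 without Cd4, and CD4 T cells (499 and 377, 6844 and 7868 UMIs) Cd4 without either. The contigs of a day came in 4 tables, called contig sets here, with 158 to 1363 cells each. The labels do not say whether a set is a mouse or a pool of mice, so sets were not used as replicates. Of a set's clonotypes with more than 1 cell, 3.33% to 7.5% were also in a different set at day 13 and 20.9% to 50% at day 19. The 50% was 4 of 8 clonotypes, in day-19 set 1. The set's own multiplexing tag was the top tag in 99.5% of cells at day 13 and 89.8% at day 19, with the lowest share, 84.3%, in day-19 set 2. The days shared 13 cell barcodes. The 4 T cell markers summed to 3274 CPM (UMIs per 1000000 gene UMIs) in CD8 and 2824 in CD4 T cells, and both neutrophil markers were at 0. The 581 and 205 macrophage-like barcodes outside the sets were picked for UMIs of the macrophage genes and for no UMI of Cd3d, Cd3e and Cd3g. Their 2.42 CPM of T cell markers came from Trac alone, as the choice set the others to 0.

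In the cells kept, Klf2 had 37809 UMIs and was seen in 73.0% of cells. S1pr4 had 4541 UMIs in 43.1% of cells, Klf3 3664 in 35.9% and S1pr1 3308 in 32.4%. The genes lie on chromosomes 8 (Klf2, 72319062 to 72321654, ENSMUSG00000055148), 5 (Klf3, 64803521 to 64832901, ENSMUSG00000029178), 3 (S1pr1, 115710433 to 115715055, ENSMUSG00000045092) and 10 (S1pr4, 81497745 to 81500137, ENSMUSG00000044199) of GRCm38.p6. Levels below are CPM of the UMIs summed over a group of cells. A log2 ratio compares 2 such levels, with an exact 95% interval that covers counting error only. A gene was called past 2-fold on the ratio alone, and the share of all genes with at least 100 UMIs that pass the same line is given as background. Levels are compared between groups of cells for 1 gene, never between genes.

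Klf2 was the member with the largest difference between CD8 T cells with and without a UMI of Pdcd1. In the 1809 Pdcd1-positive cells it stood at 226 CPM against 1183 CPM in the 2273 Pdcd1-negative cells, a log2 ratio of -2.39 (-2.43 to -2.35). By contig set, the Pdcd1-negative cells had 1279, 1400, 1353 and 1172 CPM of Klf2 at day 13 and 609, 900, 1017 and 1051 CPM at day 19. The Pdcd1-positive cells had 335, 293, 374 and 216 CPM at day 13 and 129, 102, 153 and 131 CPM at day 19. The highest Pdcd1-positive set, at 374 CPM, was below the lowest Pdcd1-negative set, at 609 CPM, so the groups did not overlap on either day; 2.18% of all genes had every Pdcd1-positive set below every Pdcd1-negative set.

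S1pr1, the exit receptor, and Klf3 were lower in Pdcd1-positive CD8 T cells as well, while S1pr4 was not. S1pr1 stood at 24.7 against 75.1 CPM (log2 ratio -1.60, interval -1.75 to -1.46) and Klf3 at 31.6 against 91.2 CPM (-1.53, -1.66 to -1.40). S1pr4 stood at 74.9 against 75.7 CPM (-0.02, -0.12 to 0.09). This interval lies inside 1.5-fold in either direction but holds counting error only, and by set the ratios of S1pr4 ran from -0.57 to 0.37. Klf2, Klf3 and S1pr1 were past 2-fold lower, as were 2.54% of all genes, and lower in all 8 sets, as were 7.39% of all genes. S1pr4 was higher in 6 sets and lower in 2.

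The gap was wider at day 19 than at day 13 for the genes that showed it. At day 13 the log2 ratios were -2.12 for Klf2, -1.22 for Klf3 and -1.33 for S1pr1, and at day 19 they were -2.95, -2.23 and -2.20. None of the intervals of the 2 days overlapped, though the difference between days was not tested. For S1pr4 the ratios were 0.03 and 0.01. Pdcd1-positive cells were deeper (median 9746 against 6926 UMIs), and more of them held a UMI of the division genes Mki67 or Top2a (40.9% against 15.4%). Without the cells that held one, the ratios were -2.15 for Klf2, -1.16 for Klf3, -1.41 for S1pr1 and 0.05 for S1pr4. Over all alternatives, with each contig set left out in turn among them, Klf2 stayed between -2.52 and -2.0. The part of depth and division in the difference was not tested. Summed macrophage markers ran by set from 59.4 to 108 CPM in Pdcd1-negative and from 34.9 to 57.9 CPM in Pdcd1-positive cells at day 13. At day 19 they ran from 32.3 to 95.2 CPM and from 60.5 to 149 CPM, and their part was not tested. In CD8 T cells thinned to 5000 UMIs, Klf2 was seen in 40.1% of Pdcd1-positive and 84.6% of Pdcd1-negative cells. S1pr1 was seen in 11.4% and 29.4%, Klf3 in 15.6% and 33.9%, and S1pr4 in 28.6% and 27.4%.

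Foxp3-negative CD4 T cells, called conventional here, showed the same order of Klf2 by Pdcd1 over a narrower range. The 327 Pdcd1-positive cells had 411 CPM of Klf2 and the 274 Pdcd1-negative cells 749 CPM (log2 ratio -0.87, -0.97 to -0.76). Klf3 stood at 66.8 against 118 CPM (-0.82, -1.09 to -0.55), and both KLF genes were lower in all 7 sets with at least 5 cells on each side, as were 1.69% of all genes. No member was past 2-fold lower, against 0.71% of all genes. S1pr1 stood at 93.9 against 139 CPM (-0.57, -0.81 to -0.33), and its days differed. At day 13 the log2 ratio of S1pr1 was -0.00 (-0.31 to 0.30), and at day 19 it was -1.35 (-1.75 to -0.96). S1pr4 had a ratio of -0.13 with an interval of -0.37 to 0.10. In Foxp3-positive CD4 T cells the ratios by Pdcd1 were -0.45 for Klf2, -0.69 for Klf3, -0.89 for S1pr1 and -0.65 for S1pr4, none past 2-fold (1.79% of all genes were past 2-fold lower). For Klf2 the ratio was 0.05 (-0.19 to 0.30) at day 13 and -0.90 (-1.23 to -0.57) at day 19, and the difference between days was not tested.

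**Figure D1:**
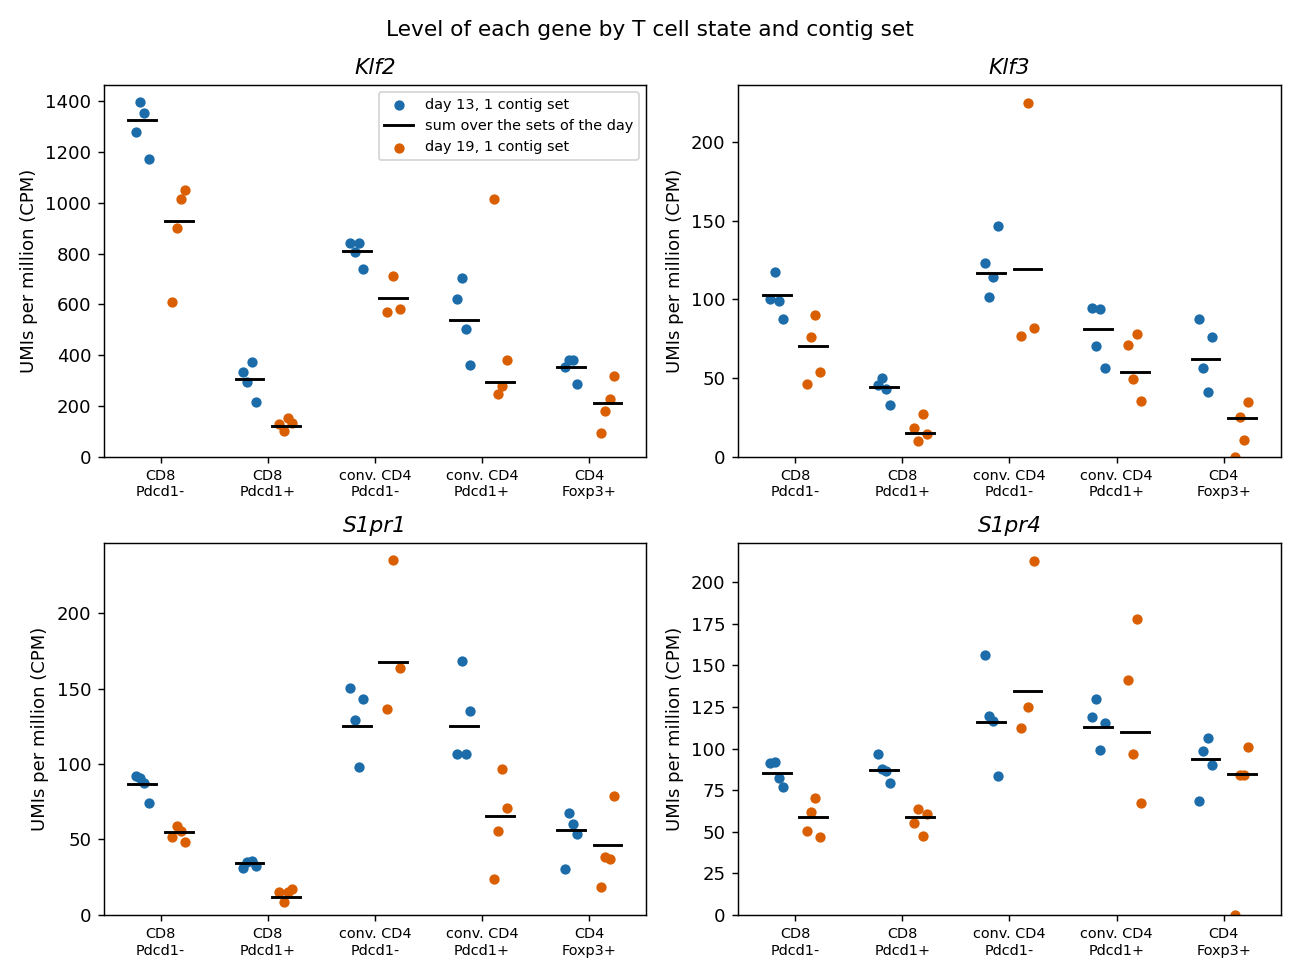
Level of each gene in CPM (linear axis from 0) in 5 groups of T cells. Points are contig sets with at least 5 cells (blue, day 13; orange, day 19) and black bars the sum over a day's sets; in CD8 T cells Klf2 is at 1327 and 929 CPM without Pdcd1 and at 306 and 120 CPM with it, while S1pr4 is between 58.7 and 86.9 CPM.

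Cells of expanded clones held little Klf2 and S1pr1. A clonotype was the same CDR3 nucleotide sequence of both chains within a set, counted over cells with exactly 1 TRA and 1 TRB chain, and cells of 1 clone share their descent. In CD8 T cells Klf2 stood at 920 CPM in 2028 single cells, 251 in 153 cells of pairs, 140 in 355 cells of clones of 3 to 9 cells and 87.1 in 341 cells of clones of 10 or more. Each step to a larger clone class was a step down. S1pr1 went from 63.1 CPM in single cells to 38.4, 16.9 and 8.98 CPM, and Klf3 from 74.3 CPM to 42.0, 31.5 and 13.3 CPM. S1pr4 had no such order, with 72.9, 91.0, 75.2 and 68.4 CPM.

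Against single cells, clones of at least 3 cells had log2 ratios of -3.03 (-3.12 to -2.93) for Klf2, -2.30 (-2.60 to -2.01) for S1pr1 and -1.75 (-1.98 to -1.52) for Klf3. For S1pr4 the ratio was -0.02 (-0.17 to 0.12). The first 3 genes were past 2-fold lower, as were 3.47% of all genes, and lower in all 8 sets, as were 6.32%. Single sets weighed on these values: without day-13 set 2 the ratio of Klf3 was -2.80 and that of S1pr1 -3.27. With each set left out in turn, the ratio of Klf2 ran from -3.505 to -2.93 and that of S1pr4 from -0.29 to 0.059. At day 19 the expanded cells held 3.30 CPM of S1pr1 and 6.60 CPM of Klf3, against 44.2 and 60.6 CPM in single cells.

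Pdcd1 differed with clone size: 75.7% of the expanded and 21.2% of the single CD8 T cells had a UMI of it in thinned cells. Among Pdcd1-positive CD8 T cells alone (596 expanded, 552 single), the ratios were -1.89 for Klf2, -1.38 for Klf3, -2.06 for S1pr1 and -0.26 for S1pr4. The first 3 were again past 2-fold lower, against 1.44% of all genes, and lower in all 8 sets, against 2.83%. Among Pdcd1-negative CD8 T cells only 100 were expanded, and 3 sets had 5 or more of them. There Klf2 stood at 296 against 1231 CPM (-2.05, -2.25 to -1.87) and was the only member past 2-fold lower, against 5.11% of all genes. S1pr1 had a ratio of -0.80 (-1.34 to -0.31) and Klf3 one of -0.39 (-0.81 to 0.00).

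S1pr4 was higher in these expanded Pdcd1-negative CD8 T cells, with 134 CPM against 70.1 CPM in single ones (0.94, 0.63 to 1.23). It was higher in the 3 sets that could be compared, as were 22.9% of all genes. The difference was in the day-13 cells, where the ratio was 1.12 (0.79 to 1.43). At day 19 it was -0.30 (-1.38 to 0.60), and the intervals of the days did not overlap; the difference between days was not tested. By clone size the level of S1pr4 in Pdcd1-negative CD8 T cells was 70.1, 127, 119 and 163 CPM.

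In conventional CD4 T cells only 60 cells belonged to clones of at least 3, against 312 single cells. Klf2 stood at 147 against 564 CPM (log2 ratio -1.94), S1pr1 at 32.2 against 121 CPM (-1.90), Klf3 at 19.7 against 92.7 CPM (-2.23) and S1pr4 at 86.0 against 129 CPM (-0.59). The first 3 were past 2-fold lower, against 2.41% of all genes. Only 1 set, day-19 set 2, had 5 or more cells on each side. Without it the ratios were -1.01 for Klf2, -3.59 for Klf3 and -0.94 for S1pr1, and without day-19 set 3 that of S1pr1 was -2.53. With a minimum of 10000 UMIs per cell none of the 3 was past 2-fold lower, and the ratio of S1pr4 turned to 0.31. Without cells with a UMI of Mki67 or Top2a the ratios were -2.39 for Klf2, -2.59 for Klf3, -2.47 for S1pr1 and -1.57 for S1pr4. A minimum of 1000 UMIs, chosen after the data were seen, gave -1.45, -1.12, -1.05 and -0.31 in the same order.

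**Figure D2:**
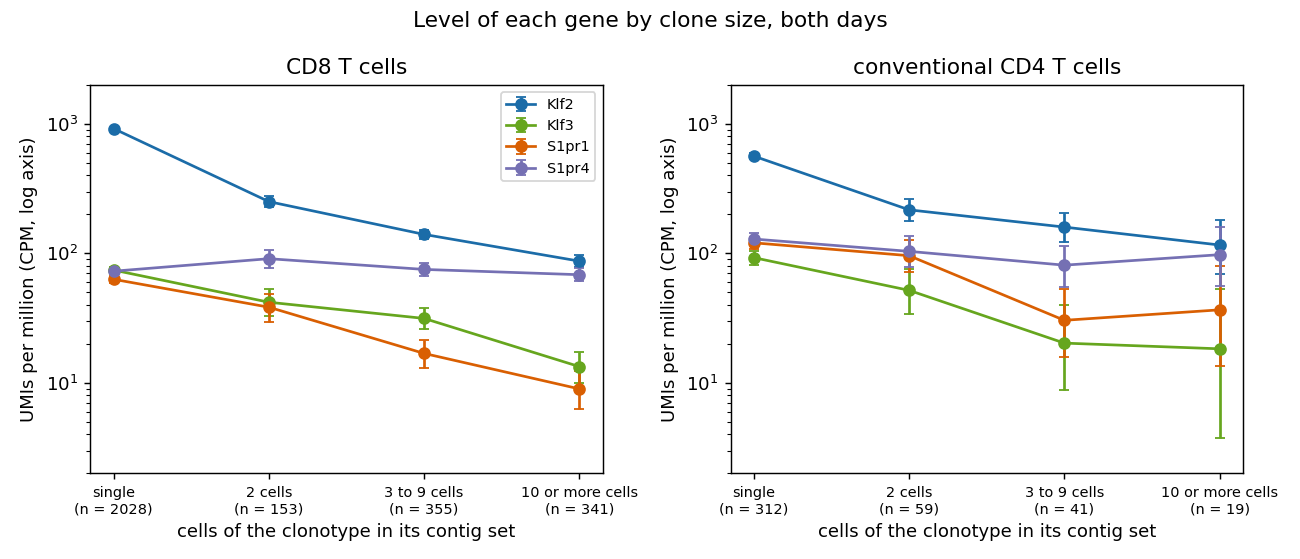
Level in CPM (log axis) by number of cells in the clone, with 95% counting intervals, for CD8 and for conventional CD4 T cells, 1 line a gene. In CD8 T cells Klf2 runs from 920 down to 87.1 CPM and S1pr1 from 63.1 down to 8.98 CPM, while S1pr4 lies between 68.4 and 91.0 CPM.

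CD8 T cells had lower levels of all 4 genes at day 19 than at day 13. By set, Klf2 was at 777, 782, 925 and 666 CPM at day 13 and at 342, 402, 530 and 586 CPM at day 19. S1pr1 was at 59.9, 59.7, 64.9 and 52.1 CPM at day 13 and at 31.3, 27.3, 32.9 and 32.8 CPM at day 19. Every day-19 set lay below every day-13 set for each of the 4 genes, as was the case for 14.3% of all genes. The summed levels gave log2 ratios of -0.81 (-0.85 to -0.78) for Klf2, -0.93 (-1.07 to -0.80) for Klf3, -1.0 (-1.16 to -0.85) for S1pr1 and -0.55 (-0.66 to -0.44) for S1pr4. The median of all genes was -0.04.

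S1pr1 alone passed 2-fold lower, against 2.41% of all genes, and it lay so near the line that the call was lost when day-13 set 3 or day-19 set 2 was left out, and Klf3 joined it when day-19 set 3 was. Day-19 CD8 T cells held more cells with a UMI of Mki67 or Top2a (34.3% against 22.6%) and more with Pdcd1 (42.7% against 33.9%, thinned). Their summed macrophage markers ranged from 48.2 to 125 CPM by set, against 55.4 to 69.0 CPM at day 13. The day, the number of mice, the pooling and the capture cannot be told apart.

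Within Pdcd1-positive CD8 T cells the day difference was larger for the KLF genes and S1pr1. Klf2 stood at 120 CPM at day 19 against 306 CPM at day 13 (-1.35, -1.45 to -1.25), Klf3 at 15.03 against 44.1 CPM (-1.55, -1.83 to -1.28) and S1pr1 at 11.9 against 34.4 CPM (-1.53, -1.85 to -1.23). These 3 were past 2-fold lower, against 3.98% of all genes. S1pr4 stood at 58.9 against 86.9 CPM (-0.56, -0.71 to -0.41). S1pr1 was at 31.4, 35.1, 35.9 and 32.7 CPM in the day-13 sets and at 15.1, 8.33, 14.99 and 17.4 CPM in the day-19 sets, and for all 4 genes every day-19 set was below every day-13 set (11.7% of all genes). In these Pdcd1-positive cells the summed macrophage markers ranged from 34.9 to 57.9 CPM by set at day 13 and from 60.5 to 149 CPM at day 19, without overlap, and their part in the difference was not tested.

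Within Pdcd1-negative CD8 T cells the ratios were -0.51 for Klf2, -0.55 for Klf3, -0.66 for S1pr1 and -0.54 for S1pr4. None was past 2-fold lower, against 1.14% of all genes, and the sets of the days were apart for Klf2, S1pr1 and S1pr4 (12.5% of all genes). Single CD8 T cells, those without a second cell of their clonotype, gave -0.55, -0.44, -0.74 and -0.46, with none past 2-fold (1.45% of all genes). The log2 ratio of S1pr4 thus lay between -0.46 and -0.56 in these 3 strata, a narrower range than that of the other genes.

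In CD4 T cells the sets of the days overlapped for all 4 genes. Klf2 was at 581, 617, 574 and 446 CPM in the day-13 sets and at 601, 271, 385 and 387 CPM in the day-19 sets, where the value of 601 CPM came from the 12 CD4 T cells of day-19 set 1. The log2 ratios were -0.80 (-0.90 to -0.70) for Klf2, -0.66 (-0.91 to -0.41) for Klf3, -0.39 (-0.61 to -0.17) for S1pr1 and -0.04 (-0.23 to 0.16) for S1pr4. No member was past 2-fold lower, against 2.54% of all genes, and none had its sets apart, against 5.79%. The summed macrophage markers of CD4 T cells did have their sets apart, with 51.8 to 129 CPM at day 13 and 136 to 211 CPM at day 19. Among cells with no UMI of C1qa, Lyz2 or Csf1r the ratios were -0.75 for Klf2 and -0.44 for Klf3. Leaving out day-19 set 2 gave -0.48 for Klf2, -0.30 for Klf3, -0.018 for S1pr1 and 0.16 for S1pr4, so the lower level of S1pr1 at day 19 depended on that set. It depended on the filters too. Without cells with a UMI of Mki67 or Top2a (35.0% at day 19, 22.4% at day 13) the ratio of S1pr1 was -0.12. With a minimum of 1000 UMIs per cell, chosen after the data were seen, it was -0.70. In Pdcd1-positive conventional CD4 T cells S1pr1 stood at 65.6 against 125 CPM (-0.93, -1.29 to -0.57), where 2.35% of all genes were past 2-fold lower. All day-19 sets were below the day-13 sets, as for 4.46% of all genes. Of these, day-19 set 1 held only 5 cells and 1 UMI of S1pr1. The highest day-19 set was at 96.7 CPM and the lowest day-13 set at 107 CPM. In Pdcd1-negative conventional CD4 T cells the ratio of S1pr1 had the other sign, 0.42 (0.07 to 0.76). It came from 86 cells at day 19 and 188 at day 13, with overlapping sets. In Foxp3-positive CD4 T cells the ratios were -0.75 for Klf2, -1.35 for Klf3, -0.29 for S1pr1 and -0.15 for S1pr4; Klf3 was past 2-fold lower, against 3.4% of all genes.

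CD4 T cells as a whole had less Klf2 and more of the other 3 genes than CD8 T cells. The ratio of CD4 to CD8 was -0.56 (-0.61 to -0.51) for Klf2, lower in 7 of 8 sets, and 0.28 (0.14 to 0.41) for Klf3, higher in 7. S1pr1 stood at 89.9 against 48.0 CPM (0.90, 0.78 to 1.03), higher in 7 of 8 sets, and S1pr4 at 106 against 75.2 CPM (0.50, 0.38 to 0.60), higher in all 8, as were 13.4% of all genes. None was past 2-fold, against 7.28% of all genes higher and 2.97% lower. The sign for Klf2 depended on depth: with a minimum of 1000 UMIs per cell, chosen after the data were seen, it was 0.17. Macrophage markers summed to 135 CPM in CD4 and 66.6 CPM in CD8 T cells, dendritic cell markers to 57.1 and 10.3 CPM and B cell markers to 24.6 and 3.33 CPM. Endothelial markers summed to 36.9 and 19.8 CPM, and NK cell markers went the other way, at 8.86 and 66.6 CPM. The part of other cell types in these differences was not tested beyond leaving out every cell with a UMI of C1qa, Lyz2 or Csf1r.

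With Foxp3-positive cells left out and Pdcd1 held fixed, the direction for Klf2 differed between the strata. Among Pdcd1-negative cells, conventional CD4 T cells had less Klf2 than CD8 T cells (-0.66, lower in all 7 sets, as were 5.24% of all genes) and more S1pr1 (0.89), S1pr4 (0.69) and Klf3 (0.37), with none past 2-fold higher (5.08% of all genes). Among Pdcd1-positive cells they had more of all 4: 0.86 (0.77 to 0.95) for Klf2, 1.08 (0.85 to 1.31) for Klf3, 1.92 (1.71 to 2.13) for S1pr1 and 0.57 (0.40 to 0.74) for S1pr4. Klf3 and S1pr1 were past 2-fold higher, against 5.07% of all genes, and all 4 were higher in all 8 sets, against 5.87%. S1pr1 in particular stood at 93.9 CPM in Pdcd1-positive conventional CD4 T cells and at 24.7 CPM in Pdcd1-positive CD8 T cells.

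Foxp3-positive CD4 T cells, the regulatory class, had less of each gene than conventional ones. Klf2 stood at 285 against 552 CPM (-0.95, -1.06 to -0.84), Klf3 at 43.8 against 88.0 CPM (-1.01, -1.29 to -0.72), S1pr1 at 51.3 against 113 CPM (-1.13, -1.40 to -0.88) and S1pr4 at 89.3 against 116 CPM (-0.38, -0.59 to -0.17). Each gene was lower in all 8 sets, as were 4.1% of all genes. Klf3 and S1pr1 were past 2-fold lower, against 1.85% of all genes, but both lay near the line: leaving out day-13 set 3, or any of day-19 sets 1, 2 and 3, gave a count of 1, and it was 0 under several of the alternatives. Klf2 was at 351, 382, 380 and 284 CPM in the day-13 sets and at 93.2, 178, 226 and 318 CPM in the day-19 sets, the lowest from 5 cells in which Klf3 and S1pr4 had no UMI. Foxp3 defines the groups and so stood at 476 against 0 CPM. Of the other regulatory markers, Il2ra stood at 366 against 72.5 CPM, Ikzf2 at 413 against 95.9 CPM and Ctla4 at 832 against 281 CPM. Dendritic cell markers summed to 87.3 CPM against 39.4 CPM, and their part was not tested.

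Klra7 encodes a Ly49 receptor that some CD8 T cells with memory or regulatory features carry. The 619 Klra7-positive CD8 T cells had 985 CPM of Klf2 against 613 CPM in the 3463 negative ones (0.69, 0.64 to 0.73), with ratios of 0.44 for Klf3 and 0.23 for S1pr1. S1pr4 went the other way, with 50.2 against 79.6 CPM (-0.67, -0.84 to -0.49), lower in all 8 sets, as were 7.89% of all genes. None was past 2-fold, against 1.68% of all genes higher and 4.32% lower. Klra7-positive cells held far fewer cells with Pdcd1 (10.5% against 41.7%, thinned).

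Among Pdcd1-negative CD8 T cells the first 3 ratios changed sign, to -0.089 (-0.13 to -0.04) for Klf2, -0.15 (-0.31 to 0.02) for Klf3 and -0.38 (-0.57 to -0.19) for S1pr1, the last lower in 4 of 8 sets. That of S1pr4 did not, with 48.8 against 84.8 CPM (-0.80, -1.01 to -0.59), lower in all 8 sets, as were 2.6% of all genes; none was past 2-fold lower (1.4%). Klf2 differed by day in this stratum, with a ratio of 0.17 (0.12 to 0.23) at day 13 and of -0.59 (-0.68 to -0.51) at day 19, and the difference of the days was not tested. S1pr4 had ratios of -0.81 and -0.65 at day 13 and day 19. No Ly49 tag was among the antibody tags, so Klra7 could be read from RNA only.

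**Figure D3:**
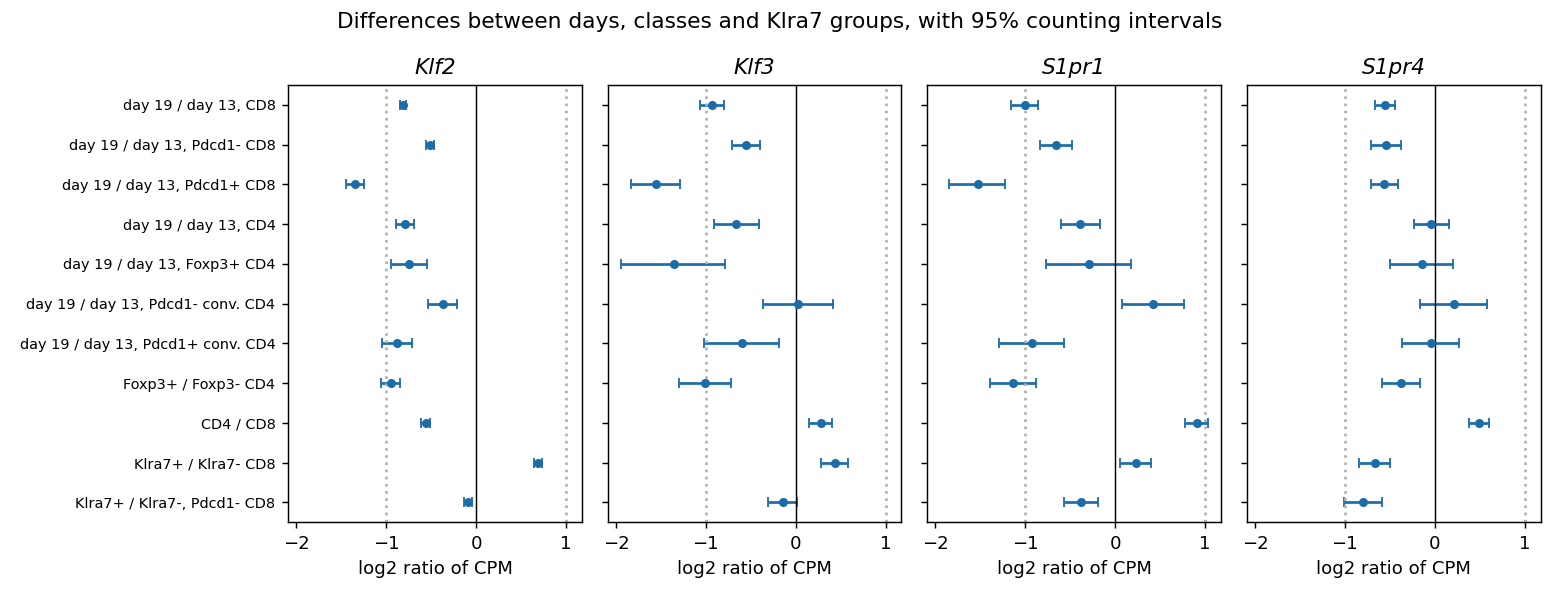
Log2 ratio of each gene with its 95% counting interval in 11 comparisons, with dotted lines at 2-fold. The day ratios of Klf2, Klf3 and S1pr1 are farthest left in Pdcd1-positive CD8 T cells (-1.35, -1.55 and -1.53), and S1pr4 is the gene with a ratio of -0.67 against Klra7-negative CD8 T cells, where the others are above 0.

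The antibody tag for CD62L is a protein readout that the choice of genes and cells did not use. It was read as UMIs per 10000 antibody tag UMIs of the cell, and its counts were low, with a median of 4 UMIs per CD8 T cell at day 13 and 2 at day 19. The medians were 7.73 and 8.19 per 10000 in CD8 T cells and 4.94 and 4.81 in conventional CD4 T cells. Pdcd1-negative CD8 T cells had 13.3 and 22.9 per 10000 and Pdcd1-positive ones 5.05 and 4.48. Single CD8 T cells had 10.8 and 14.7, and cells of clones of 10 or more 4.75 and 4.09. The IgG1 isotype tag, which marks unspecific binding, stood at 26.0 and 25.4 per 10000 in CD8 T cells, above the CD62L tag of the median cell. The highest of 4 equal bins of CD8 T cells by CD62L, taken within each set, had medians of 28.4 and 46.7 per 10000, that of conventional CD4 T cells 11.7 and 12.9.

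Klf2 followed the tag in CD8 T cells. From the lowest to the highest bin of CD62L, Klf2 was at 286, 349, 729 and 1509 CPM, a log2 ratio of the outer bins of 2.40 (2.34 to 2.46). Klf3 was at 38.1, 44.0, 61.5 and 103 CPM (1.44, 1.27 to 1.61) and S1pr1 at 32.6, 30.9, 51.8 and 86.0 CPM (1.40, 1.22 to 1.59). S1pr4 was at 76.2, 83.6, 74.7 and 63.7 CPM (-0.26, -0.42 to -0.10). For Klf2, Klf3 and S1pr1 the step lay between the second and the fourth bin, with little between the lowest bins. These 3 were past 2-fold higher, against 2.27% of all genes, and higher in all 8 sets, against 5.93%.

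The share of cells with Pdcd1 was 7.43% in the highest and 57.9% in the lowest bin. With bins taken among Pdcd1-negative CD8 T cells, the ratios were 1.27 for Klf2, 0.50 for Klf3, 0.74 for S1pr1 and -0.43 for S1pr4. Klf2 was past 2-fold higher, against 0.576% of all genes, and Klf2 and S1pr1 were higher in all 8 sets, against 2.87%. In conventional CD4 T cells the outer bins differed little, with ratios of 0.06 (-0.09 to 0.20) for Klf2, 0.43 for Klf3, 0.23 for S1pr1 and 0.08 for S1pr4, and none was past 2-fold (1.03% of all genes were). At the low tag level of these cells a relation may not be detectable. Over CD8 T cells Spearman's rho between the tag and Klf2 in thinned cells was 0.50 at day 13 and 0.52 at day 19, over 2646 and 1436 cells that share a library, given as a description.

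**Figure D4:**
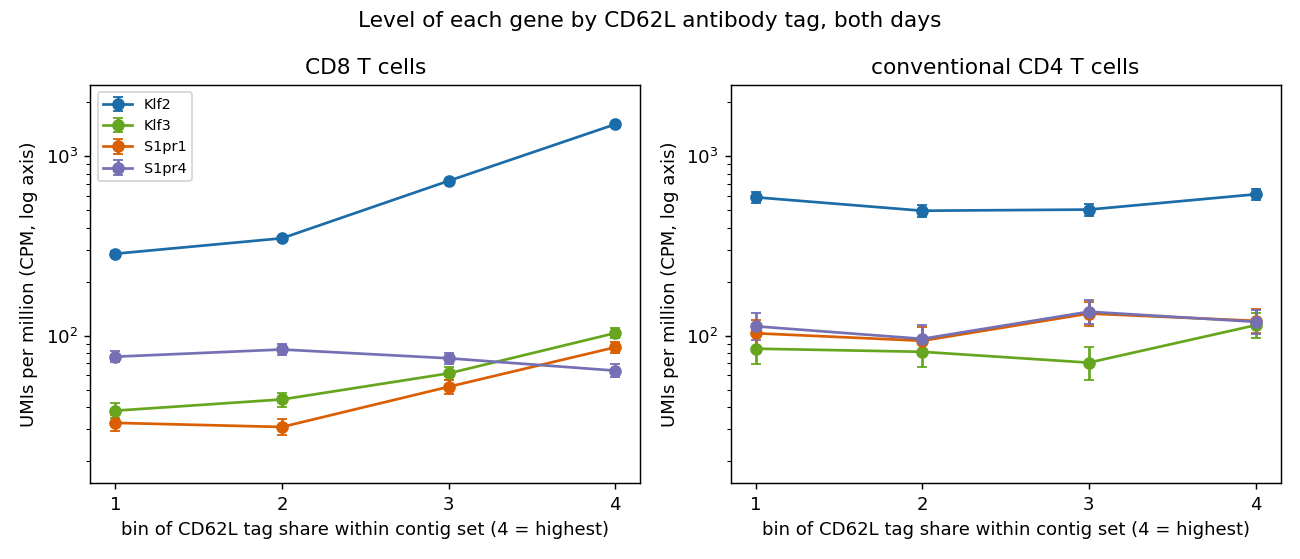
Level in CPM (log axis) by bin of the CD62L antibody tag (4 = highest), with 95% counting intervals, for CD8 and conventional CD4 T cells, 1 line a gene. Klf2 runs from 286 to 1509 CPM over the bins of CD8 T cells, and S1pr4 from 76.2 to 63.7 CPM.

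Cell by cell, S1pr1 was seen mostly where Klf2 was seen. In CD8 T cells thinned to 5000 UMIs, S1pr1 had a UMI in 29.9% of cells with Klf2 and in 5.72% of cells without it. Both were seen in 19.4% of cells (exact 95% interval 18.2 to 20.6), where the product of the single shares is 13.9%. The odds ratio over sets (Mantel-Haenszel) was 6.24 for Klf2 with S1pr1, 4.08 for Klf2 with Klf3 and 2.69 for Klf3 with S1pr1. These values were lower at day 13 (4.76, 3.07 and 2.33) than at day 19 (13.4, 8.36 and 4.49), and the difference between days was not tested. S1pr4 had lower odds ratios with its partners: 1.26 with Klf2, 1.55 with Klf3 and 1.65 with S1pr1.

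The pairing of Klf2 with S1pr1 was seen on both sides of Pdcd1. Its odds ratio was 3.96 in Pdcd1-negative and 5.23 in Pdcd1-positive CD8 T cells, 3.07 in conventional CD4 and 3.71 in Foxp3-positive CD4 T cells. S1pr4 with S1pr1 reached 2.77 in conventional CD4 T cells, against 1.68 and 1.80 in Pdcd1-negative and Pdcd1-positive CD8 T cells. None of the 4 genes was seen in 41.1% of Pdcd1-positive and 8.89% of Pdcd1-negative CD8 T cells, in 17.1% of conventional CD4 and in 31.6% of Foxp3-positive CD4 T cells. All 4 were seen in 1.77%, 4.66%, 7.99% and 2.55%. At 5000 UMIs a gene that is not seen may still be expressed.

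The level of S1pr1 was higher in cells with more Klf2 UMIs. In CD8 T cells with 0, 1 to 2, 3 to 5 and at least 6 Klf2 UMIs of 5000, S1pr1 was at 14.4, 51.5, 76.9 and 107 CPM and Klf3 at 25.8, 65.3, 94.8 and 131 CPM. S1pr4 was at 62.1, 95.8, 94.8 and 77.3 CPM, highest in the middle classes. In Pdcd1-positive CD8 T cells, where most cells had no Klf2, S1pr1 went from 10.1 to 104 CPM and Klf3 from 18.3 to 153 CPM. The Pdcd1-positive cells with at least 6 Klf2 UMIs thus held about as much S1pr1 as the Pdcd1-negative ones, which had 107 CPM. Conventional CD4 T cells went from 54.7 to 217 CPM of S1pr1. The median CD62L tag followed Klf2 in CD8 T cells, with 4.68, 6.09, 9.51 and 20.7 per 10000, and less so in conventional CD4 T cells, with 4.66, 4.92, 5.05 and 5.11. Cd69, the gene of the S1PR1 antagonist, was also higher with Klf2, at 367, 557, 600.0 and 797 CPM in CD8 T cells.

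**Figure D5:**
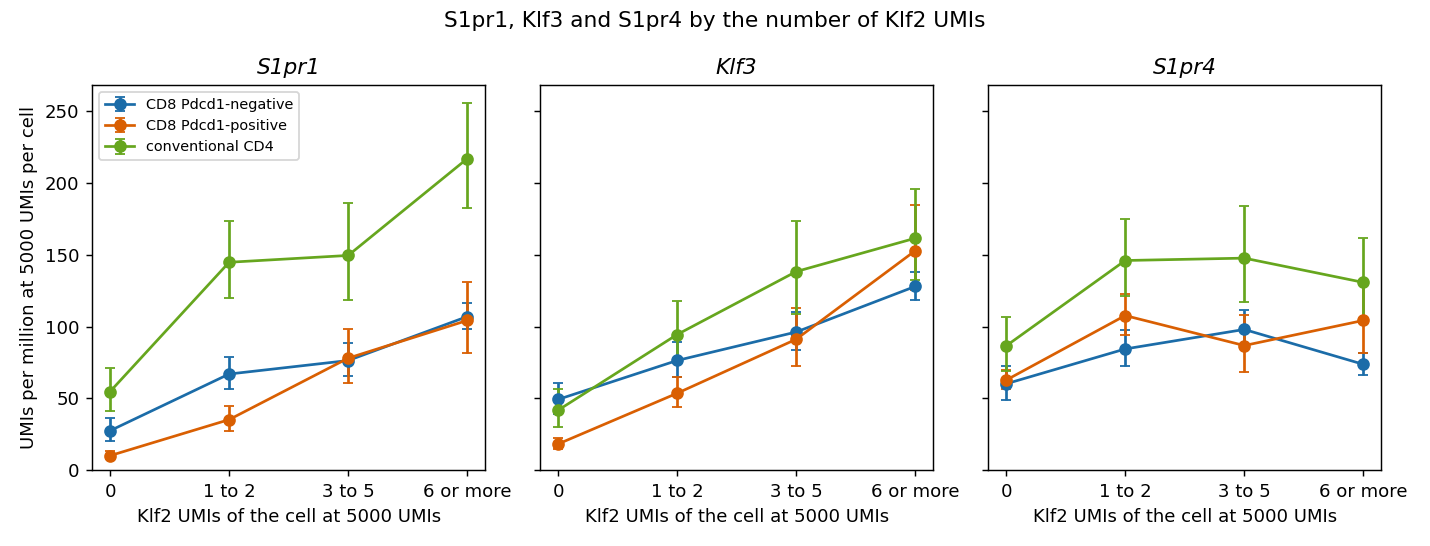
Level of S1pr1, Klf3 and S1pr4 in CPM, with 95% counting intervals, by number of Klf2 UMIs in cells thinned to 5000 UMIs, for Pdcd1-negative CD8, Pdcd1-positive CD8 and conventional CD4 T cells. S1pr1 in Pdcd1-positive CD8 T cells runs from 10.1 to 104 CPM, and S1pr4 has no steady course.

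Other genes of the pathways are given from lists of circulating T cell genes, tissue retention genes, the S1P pathway and the KLF family. The lists were chosen with earlier results of these data known, so their direction is no independent evidence. Between Pdcd1-positive and Pdcd1-negative CD8 T cells, 8 of 11 circulating genes were past 2-fold lower, against 2.54% of all genes, with a list median of -1.54 where that of all genes was 0.12. Among them were Satb1, a chromatin organizer (50.3 against 214 CPM, -2.09), Lef1, a factor of naive T cells (36.0 against 138 CPM, -1.94), Tcf7, the gene of TCF1 (-1.60), and Ccr7, the lymph node homing receptor (-1.24). Of the retention genes, 5 of 10 were past 2-fold higher, against 6.79% of all genes: Rgs16 (2.57), Cxcr6 (1.87), Itga1 (1.69), Prdm1 (1.5) and Zfp683, the gene of Hobit (1.23). Cd69 stood on the other side, at -0.88. In the KLF family only Klf4 of 8 genes tested was past 2-fold lower (30.5 against 67.6 CPM, -1.15), with Klf9 at -0.99 and Klf6 at -0.08. None of 10 S1P pathway genes tested was past 2-fold, with a median of 0.12; Gnai2, a G protein subunit below S1PR1, was at 0.51 and S1pr2 at 0.38.

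The same lists divided in a like way by clone size and by CD62L in CD8 T cells. In expanded clones 8 of 11 circulating genes were past 2-fold lower, against 3.47% of all genes (median -1.82; Tcf7 -2.74, Lef1 -2.80 and Satb1 -2.80), as were Klf4 (-1.60) and Klf9 (-1.28) of the KLF family. Of the retention genes 5 of 10 were past 2-fold higher, against 3.89% of all genes. In the highest against the lowest CD62L bin 8 of 11 circulating genes were past 2-fold higher, against 2.27% of all genes (median 1.501), and 7 of 10 retention genes past 2-fold lower, against 7.5% (median -2.23). Between the days, 0 of 11 circulating genes were past 2-fold in CD8 T cells (median -0.52, where that of all genes was -0.04). Within Pdcd1-positive CD8 T cells 4 of 11 were past 2-fold lower at day 19, against the 3.98% of all genes (median -0.82, where that of all genes was -0.053): Igfbp4 (-2.62), Itgb7 (-1.52), Lef1 (-1.20) and Ccr7 (-1.07). In all CD8 T cells the retention genes split, with Zfp683 (1.61), Itga1 (1.23) and Rgs16 (1.07) past 2-fold higher at day 19, against 1.61% of all genes, and Itgae (-1.02) past 2-fold lower, against 2.41%. Between Foxp3-positive and conventional CD4 T cells 2 of 11 circulating genes, Tcf7 (-2.63) and Dapl1, were past 2-fold lower, against 1.85% of all genes.

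The genes whose levels ran most like each member were ranked by Spearman's rho over 35 profiles of class, state and set and 7170 genes, as a description of libraries that share depth and capture. For Klf2 the first were Lef1 (0.89), Gimap6 (0.87), Ssh2, Rapgef6 and Foxp1 (each 0.86), and the last Reep5 (-0.92) and Havcr2, the gene of TIM-3 (-0.89). For S1pr1 they were Stk38 (0.93), Ripor2 (0.91) and Trib2 (0.88), and for Klf3 Ppp1r15a (0.90), Tob1 (0.86) and Ripor2 (0.85). S1pr4 ran with other genes: Rnf125 (0.86), Slamf6, Gmfg, Tnfaip8 and Cxcr3 (each 0.85). Among the members rho was 0.78 for Klf2 with Klf3, 0.75 for Klf3 with S1pr1, 0.75 for S1pr1 with S1pr4, 0.60 for Klf2 with S1pr1, 0.49 for Klf3 with S1pr4 and 0.18 for Klf2 with S1pr4.

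Free RNA and depth set limits to these levels. Barcodes with at most 100 UMIs, which mostly hold free RNA, had 824 CPM of Klf2 at day 13 and 414 CPM at day 19, and 72.1 and 40.6 CPM of S1pr1. All CD8 T cells had 807 and 459 CPM of Klf2 and 60.0 and 29.9 CPM of S1pr1 on these days. Klf3 was at 100 and 53.2 CPM in these barcodes, against 73.0 and 38.2 CPM in CD8 T cells. S1pr4 was at 60.7 and 47.9 CPM, against 86.1 and 58.8 CPM. S1pr1 and Klf3 stood higher in these barcodes than in CD8 T cells on both days, Klf2 at day 13 only, and S1pr4 on neither. All 4 genes were lower at day 19 in these barcodes too, and the part of free RNA in the day difference was not tested. The macrophage-like barcodes outside the contig sets (581 and 205, median depth 8961 and 9518 UMIs) were picked for no UMI of Cd3d, Cd3e and Cd3g. S1pr1 had a UMI in 3.44% and 2.44% of them and S1pr4 in 1.38% and 2.44%, below the T cell shares given above. That choice leaves out barcodes with RNA of these T cell genes, so the shares cannot serve as the background of S1pr1 and S1pr4. Klf2, with 46.0% and 44.4%, and Klf3, with 30.3% and 31.7%, were common there, so these barcodes give no background for the KLF genes. T cells left out for a depth below 5000 but at least 1000 UMIs had higher levels of all 4 genes: 1711 and 1306 CPM of Klf2 in CD8 T cells, 163 and 154 CPM of Klf3 and 123 and 91.3 CPM of S1pr1 at day 13 and day 19. S1pr4 was at 98.0 and 105 CPM in these shallow CD8 T cells, so its lower level at day 19 was not seen there.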

How the data were processed

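The deposited matrices give whole-number UMI counts, per the file headers, for 32285 genes, 138 antibody tags and 4 multiplexing tags, and the deposited TCR tables list contigs with counts of reads and UMIs. Per the submitters' processing notes, bcl2fastq 2.20, Cell Ranger 4.0.0, STAR 2.7.5c, Seurat and R 4.1.2 were used with mm10. The gene matrices held 144565182 UMIs at day 13 and 81224453 at day 19. Of 8359 and 4295 contig barcodes, 3775 and 2159 passed the filters; 630 and 346 of these were in neither class, of which 182 and 114 held UMIs of both Cd4 and Cd8a or Cd8b1. No doublet caller was run.

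UMI counts were summed over cells, scaled to CPM and compared as log2 ratios with exact intervals for 2 Poisson counts, Clopper-Pearson for shares (Python 3.11.15, numpy 2.4.6, scipy 1.17.1, pandas 2.3.3). Intervals cover counting error only. The method was tested on simulated data. States needed 1 UMI, and cells were thinned to 5000 UMIs with a fixed seed for shares. The 4 genes, the lists and the rule for named genes (the members, list genes and the 5 most and 3 least alike genes of each member) were chosen with earlier results of these data known. Alternatives changed depth, filters, class and state rules, weighting and the 2-fold line, and left out each contig set.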

Additional observations from a re-analysis of the deposited data

Results flagged for a closer look

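Klf3 in CD4 T cells of day-19 set 3 stood apart from the other sets of its day. It was at 101 CPM over 79 cells, where the nearest set had 44.0 CPM and the lowest 35.4 CPM, so the gap to the nearest took up 0.869 of the whole range. Of 16 groups of 4 sets looked at, this was the only one in which a set stood so far out, and chance marks about 1 group in 20. S1pr1 and S1pr4 were also highest in that set among the day-19 CD4 T cells, at 120 and 138 CPM, and Klf2 was not, at 385 CPM. In 32 comparisons of the direction of a difference at day 13 and day 19 over the sets, none had all sets of a day on one side and all of the other day opposite.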

How the results depend on the processing

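Of 852 log2 ratios under alternatives in 11 comparisons, 674 stayed inside the 95% interval of the main value, 173 left it and 5 changed sign as called values; of 224 counts of genes past 2-fold, 193 were the same or within 1.5 times and 31 moved. The counts of 3 for Pdcd1, clone size and CD62L in CD8 T cells were 3 without each contig set. Klf2, Klf3 and S1pr1 were -0.089, -0.15 and -0.38 for Klra7 within Pdcd1-negative CD8 T cells, Klf2 was 0.17 for CD4 against CD8 at a minimum of 1000 UMIs (added after seeing the data), and S1pr4 was 0.31 for conventional CD4 clones at a minimum of 10000 UMIs; the cause was not tested.
At a 1.5-fold line the counts were 3 for the day in CD8 (1 at 2-fold), 2 for the day in CD4 (0), 1 for CD4 against CD8 (0), 2 for Pdcd1 in conventional CD4 (0) and 2 for Klra7 (0). The share of all genes was not taken at this line, nor under the changed filters and rules below. These counts therefore have no background and cannot be read against all genes. At a minimum of 10000 UMIs they were 0 for Foxp3 (2), 1 for Pdcd1 in conventional CD4, 0 for conventional CD4 clones (3) and 1 for Klra7, and at a minimum of 1000 UMIs 1 for CD4 against CD8. The day in CD8 gave 0 without any macrophage gene UMI, without cycling cells, with exactly 1 TRA and 1 TRB chain, with sets weighted equally and as a mean over cells. Foxp3 gave 0 without any macrophage gene UMI, with classes from 2 UMIs and with thinned states, and 1 without cycling cells and with exactly 1 TRA and 1 TRB chain. CD4 against CD8 gave 1 without macrophage gene UMIs, and Pdcd1 in conventional CD4 gave 1 with exactly 1 TRA and 1 TRB chain and with at least 80% of multiplexing UMIs on 1 tag. Leaving out each set gave 0 to 2 for the day in CD8, 0 to 1 for CD4 against CD8, 1 to 2 for Foxp3 and 2 to 3 for conventional CD4 clones. With sets weighted equally the CD8 clone ratios were -3.65 for Klf2, -2.89 for Klf3 and -3.32 for S1pr1. Without the minimum of 100 UMIs the background share of genes past 2-fold in either direction ran from 11.8% to 21.2% over the 11 comparisons, against 1.72% to 10.2% with it. No paired test over contig sets was run, because the labels do not say whether a set is a mouse or a pool; differences within sets are given as counts of sets. The 60 cells of conventional CD4 clones limit what can be read from them.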

Other observations

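Medians of 4 other antibody tags are given as values. The tag for CD279, the PD-1 protein, had medians of 120 and 122 per 10000 antibody tag UMIs in Pdcd1-negative and 124 and 127 in Pdcd1-positive CD8 T cells at day 13 and day 19. In CD8 T cells the CD69 tag was at 74.5 and 77.1 per 10000 and the CD127 tag, against the interleukin-7 receptor, at 159 and 161. CD44, an adhesion molecule of activated T cells, was at 16.7 per 10000 in Pdcd1-negative and 17.1 in Pdcd1-positive CD8 T cells at day 13, and at 19.0 and 25.7 at day 19. At day 19 it was at 20.2 in single CD8 T cells and at 29.8 in clones of 10 or more cells, with medians of 5 and 7 UMIs. The median total of antibody tag UMIs per CD8 T cell was 4292 at day 13 and 2249 at day 19.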
